A study of Mus musculus with 46 samples.

Results

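Glutathione transferases are described here in mouse muscle that has or lacks *Actn3*, with or without androgen, by 9 genes: *Gstm1*, *Gstm2*, *Gstm4*, *Gstm5*, *Gstm6*, *Gstm7*, *Gstp1*, *Gsta4* and *Gstt1*. Of the 9 genes, 8 have counts in both experiments, among 17514 genes in the castration experiment and 16987 in the implant experiment; *Gstm6* is in neither table and is not analysed here. The 9 were selected on fold changes measured in these same counts. Which comparisons chose them is not recorded in the sources used here, so all comparisons are treated as used. The members are described with values and standard errors. Where a test over all genes called a member, the call is listed only, and nothing is read from it.

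Bulk RNA-seq was made from about 50 mg of muscle per animal in 2 separate experiments, and the 45 libraries used here form 8 groups. In the first, males of strain C57BL6, wild type (WT) or *Actn3* knock-out (KO), had their testes removed (ORX) or only exposed by the same surgery (SHAM) at 8 to 10 weeks of age, and the gastrocnemius was taken 12 weeks later. In the second, C57BL6 females of the same genotypes received a silastic tube that was empty (Empty) or held 10 mg of dihydrotestosterone (DHT) at 4 to 5 weeks of age, and the spinalis was taken after 6 weeks. Every group, controls included, received buprenorphine before surgery and isoflurane in oxygen. The castration groups are WT_SHAM with 6 libraries, WT_ORX with 6, KO_SHAM with 6 and KO_ORX with 5. The implant groups are WT_Empty with 5 libraries, WT_DHT with 6, KO_Empty with 5 and KO_DHT with 6. Sex, muscle, age and time all differ between the experiments, so levels are compared only within one of them. The knock-out lacks the gene in every tissue and throughout life, and a piece of muscle holds many cell types.

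Glutathione transferases join the thiol of glutathione to reactive electrophiles, such as drugs, their metabolites and products of lipid oxidation, and the conjugates are then pumped out of the cell. *Gstm1*, *Gstm2*, *Gstm4*, *Gstm5* and *Gstm7* encode cytosolic enzymes of the mu class, and *Gstm2* is known as a mu-class enzyme of skeletal muscle whose human counterpart can bind ryanodine receptor calcium channels. *Gstp1* encodes the pi-class enzyme, which also binds the stress kinase JNK, *Gsta4* an alpha-class enzyme that acts on the lipid aldehyde 4-hydroxynonenal, and *Gstt1* a theta-class enzyme that acts on small halogenated compounds.

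The genotype labels were checked by *Actn3*, which encodes alpha-actinin-3 of fast fibres, as mean counts-per-million values (CPM, after edgeR's TMM scaling) ± standard deviation (SD). In the WT groups it was 6622 ± 379 in WT_SHAM (n = 6), 8867 ± 684 in WT_ORX (n = 6), 9669 ± 657 in WT_Empty (n = 5) and 7104 ± 605 in WT_DHT (n = 6). In the KO groups it was 45.7 ± 6.84 in KO_SHAM (n = 6), 45.3 ± 7.09 in KO_ORX (n = 5), 69.6 ± 11.1 in KO_Empty (n = 5) and 68.0 ± 6.11 in KO_DHT (n = 6). Every library has the *Actn3* level of its labelled genotype. Skeletal muscle as the source, but not which muscle, was checked by 10 myofibre genes, none at 0 in any library, with titin, *Ttn*, the most abundant. The median of the sum over all 10 ran from 194000 CPM in KO_SHAM to 214700 in WT_ORX and from 227300 CPM in KO_DHT to 292200 in WT_Empty. Libraries held 26.7 M to 55.4 M counts (M, mega), and 3 castration libraries held under 30 M, replicate 1 of KO_SHAM and replicates 1 and 2 of KO_ORX. Fold changes of single genes that rest on these 3 small libraries are followed, where first given, by their value without them.

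*Gstm2* was higher after castration in both genotypes, with the larger difference in WT. Its level in WT_SHAM was 14.4 CPM at the lowest, 24.5 at the median and 29.0 at the highest library, and in WT_ORX 56.9, 64.2 and 83.9. All 6 WT_ORX libraries lie above all 6 WT_SHAM libraries, and replicate 5 of WT_SHAM is the low one. In KO_SHAM the lowest, median and highest levels of *Gstm2* were 30.5, 33.7 and 35.3 CPM, and the 5 KO_ORX libraries had 47.5, 49.5, 58.7, 58.0 and 60.7. The KO groups do not overlap either, and the lowest 2 KO_ORX values belong to its 2 small libraries. The log2 fold change of *Gstm2*, ORX against SHAM, was 1.49 with a standard error (SE) of 0.113 in WT, a 2.80-fold difference, and 0.71 (SE 0.116) in KO, a 1.63-fold difference. Without the 3 small libraries the KO value of *Gstm2* was 0.83. In bulk muscle, fewer cells of a type and less RNA per cell cannot be told apart, which holds for every level given here.

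Between genotypes, *Gstm2* was higher in KO than in WT under sham surgery and lower in KO after castration. The log2 fold change of *Gstm2*, KO against WT, was 0.50 (SE 0.113) in SHAM and -0.28 (SE 0.115) in ORX, or 0.48 and -0.17 without the 3 small libraries. The SHAM ranges of *Gstm2* do not overlap, while the ORX ranges share the span between 56.9 and 60.7 CPM. The difference between the 2 castration responses of *Gstm2*, KO minus WT, was -0.78 (SE 0.161), or -0.66 without the 3 small libraries.

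With DHT, *Gstm2* was lower in both genotypes, again with the larger difference in WT. The 5 WT_Empty libraries had *Gstm2* at 60.4, 53.0, 48.6, 45.9 and 45.5 CPM, and WT_DHT had 7.49 at the lowest, 8.80 at the median and 10.9 at the highest. Every WT_DHT library lies far under every WT_Empty library. The 5 KO_Empty libraries had *Gstm2* at 39.8, 49.0, 42.5, 40.4 and 48.1 CPM, and KO_DHT had 22.9, 25.6 and 30.4 as lowest, median and highest. The KO groups do not overlap, and all 6 KO_DHT libraries lie above all 6 WT_DHT libraries. The log2 fold change of *Gstm2*, DHT against Empty, was -2.51 (SE 0.098) in WT, a 5.71-fold difference, and -0.75 (SE 0.093) in KO, a 1.68-fold difference. Between genotypes, *Gstm2* differed by -0.21 (SE 0.097) in Empty, where the ranges overlap, and by 1.56 (SE 0.093) in DHT, a 2.94-fold higher level in KO. The difference between the DHT responses of *Gstm2*, KO minus WT, was 1.76 (SE 0.134).

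In order of mean *Gstm2* level, the castration groups run WT_SHAM at 23.8 ± 5.08 CPM, KO_SHAM at 33.6 ± 1.80, KO_ORX at 54.9 ± 5.95 and WT_ORX at 66.7 ± 9.30. The implant groups run WT_DHT at 8.87 ± 1.22 CPM of *Gstm2*, KO_DHT at 26.1 ± 2.52, KO_Empty at 44.0 ± 4.32 and WT_Empty at 50.7 ± 6.20. Neighbours in each order have separate ranges, other than KO_ORX with WT_ORX and KO_Empty with WT_Empty. In both experiments the 2 WT groups are the ends of the *Gstm2* order and the 2 KO groups lie between them. *Gstm2* was chosen on these counts, so its ranks among all genes are listed only. Its log2 fold change stands 34th from the highest of 17514 for ORX in WT, and 26th from the lowest of 16987 for DHT in WT. Raw *Gstm2* counts behind these levels run from 261 to 587 in WT_DHT and from 2427 to 3443 in WT_ORX.

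**Figure D1:**
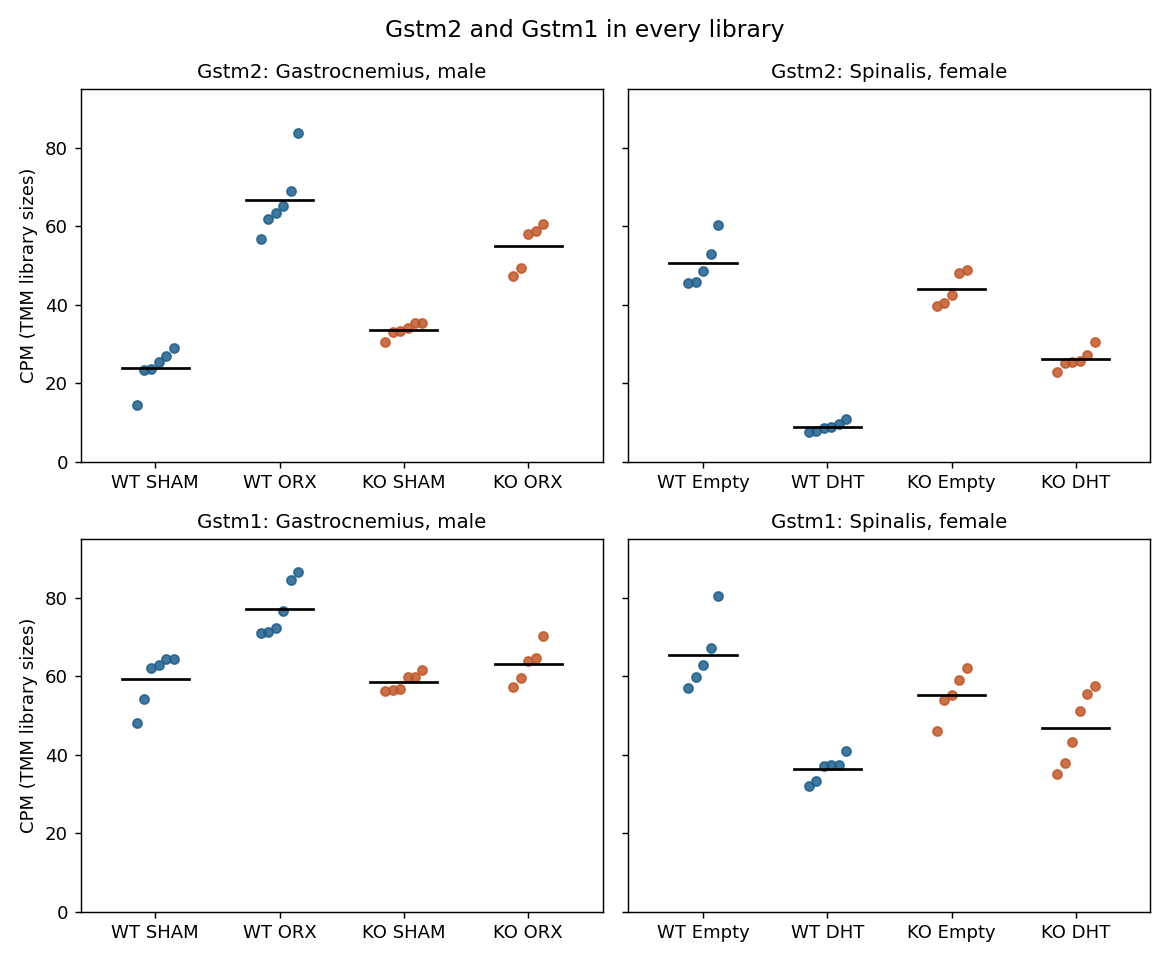
Levels of *Gstm2* and *Gstm1* (vertical axis, CPM) in the 8 groups (horizontal axis), each dot 1 library (WT blue, KO orange) and each black bar a group mean. Within each experiment *Gstm2* is higher in ORX than in SHAM and in Empty than in DHT, and its WT groups lie at both ends.

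*Gstm1*, the member nearest in sequence to *Gstm2* among those measured, had separate ranges after castration and with DHT in WT and overlapping ranges in KO. Its level in WT_SHAM was 47.9 CPM at the lowest, 62.4 at the median and 64.3 at the highest, and in WT_ORX 71.1, 74.4 and 86.6. The WT groups do not overlap, and replicate 5 of WT_SHAM is again the lowest. KO_SHAM had *Gstm1* at 56.1, 58.1 and 61.6 CPM as lowest, median and highest, and the 5 KO_ORX libraries had 59.6, 57.3, 64.7, 63.8 and 70.2. These KO ranges of *Gstm1* overlap. The log2 fold change of *Gstm1*, ORX against SHAM, was 0.38 (SE 0.068) in WT and 0.11 (SE 0.072) in KO, the last 0.20 without the 3 small libraries. Between genotypes *Gstm1* differed by -0.29 (SE 0.071) in ORX, where all 5 KO libraries lie under all 6 WT libraries, and by -0.02 in SHAM, or -0.22 and -0.04 without the 3 small libraries.

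In the implant experiment, the 5 WT_Empty libraries had *Gstm1* at 80.3, 57.0, 59.8, 62.8 and 67.1 CPM, and WT_DHT had 32.0, 37.2 and 41.0 as lowest, median and highest. All WT_DHT libraries lie under all WT_Empty libraries. The 5 KO_Empty libraries had *Gstm1* at 45.9, 59.1, 54.0, 55.3 and 62.0 CPM, and KO_DHT had 34.9, 47.1 and 57.4 as lowest, median and highest, so the KO ranges overlap. The log2 fold change of *Gstm1*, DHT against Empty, was -0.85 (SE 0.115) in WT and -0.24 (SE 0.115) in KO. KO minus WT, the DHT responses of *Gstm1* differed by 0.60 (SE 0.163), with values from 0.52 to 0.68 as single libraries were left out. That difference of *Gstm1* drops out of the genes called without any 1 of 14 of the 22 libraries, by limma-voom, and with library-size scaling.

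Of the other mu-class members, *Gstm5* had its highest castration level in WT_ORX, at 54.1 to 75.0 CPM. Its exons overlap those of *4933431E20Rik* on the opposite strand by 178 bases. The strand setting of the counting is not given in the sources used here, so the counts of the 2 genes may not be separate. In ORX the KO libraries had *Gstm5* at 48.9 to 52.6 CPM, under every WT library, with a log2 difference of *Gstm5* of -0.29 (SE 0.077), or -0.28 without the 3 small libraries. With DHT, the mean level of *Gstm5* was higher, at 49.0 CPM against 44.4 in WT and 44.9 against 37.6 in KO, with log2 fold changes of 0.14 (SE 0.074) and 0.26 (SE 0.074) and overlapping ranges in both. *Gstm4* ranged from 4.63 to 7.78 CPM in the castration libraries and from 3.37 to 8.09 in the implant libraries, and its largest difference was -0.40 (SE 0.101), KO against WT in ORX, where group means were 5.06 and 6.69 CPM, or -0.35 without the 3 small libraries. *Gstm7* was the least abundant member, with 24 to 124 counts per library. Its log2 fold change with DHT in KO was -0.63 (SE 0.237), and KO against WT in Empty it was 0.66 (SE 0.249), with overlapping ranges in both.

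Outside the mu class, the theta-class *Gstt1* had higher levels after castration in WT. WT_SHAM had *Gstt1* at 6.39, 7.69 and 8.20 CPM as lowest, median and highest, and WT_ORX had 8.96, 10.1 and 12.0. These WT groups do not overlap, and the log2 fold change of *Gstt1* was 0.42 (SE 0.090) in WT and 0.26 (SE 0.096) in KO, the last 0.24 without the 3 small libraries. In KO the ranges of *Gstt1* overlap, at 6.02 to 9.51 CPM in KO_SHAM and 8.58 to 10.6 in KO_ORX. In the implant groups the mean level of *Gstt1* stayed between 5.49 CPM in WT_DHT and 6.70 CPM in KO_DHT. The pi-class *Gstp1* held mean levels of 46.9 to 51.9 CPM in the castration groups and 48.2 to 51.9 in the implant groups, and its WT_ORX range of 49.5 to 55.7 CPM lies just above its WT_SHAM range of 44.4 to 48.9, a log2 fold change of 0.15 (SE 0.048). The alpha-class *Gsta4* had higher mean levels in KO than in WT in SHAM, Empty and DHT, with log2 differences of 0.34 (SE 0.100; 0.35 without the 3 small libraries), 0.31 (SE 0.103) and 0.33 (SE 0.094). The ranges of *Gsta4* overlap in all 3, and edgeR called none of them. Alternatives call *Gsta4* for KO against WT in DHT (DESeq2, library-size scaling, and without the WT_DHT library 39KR) and in SHAM (without replicate 5 of KO_SHAM). In ORX the *Gsta4* difference between genotypes was 0.03 (SE 0.104), or -0.02 without the 3 small libraries, at means of 15.3 CPM in KO and 14.9 in WT.

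**Figure D2:**
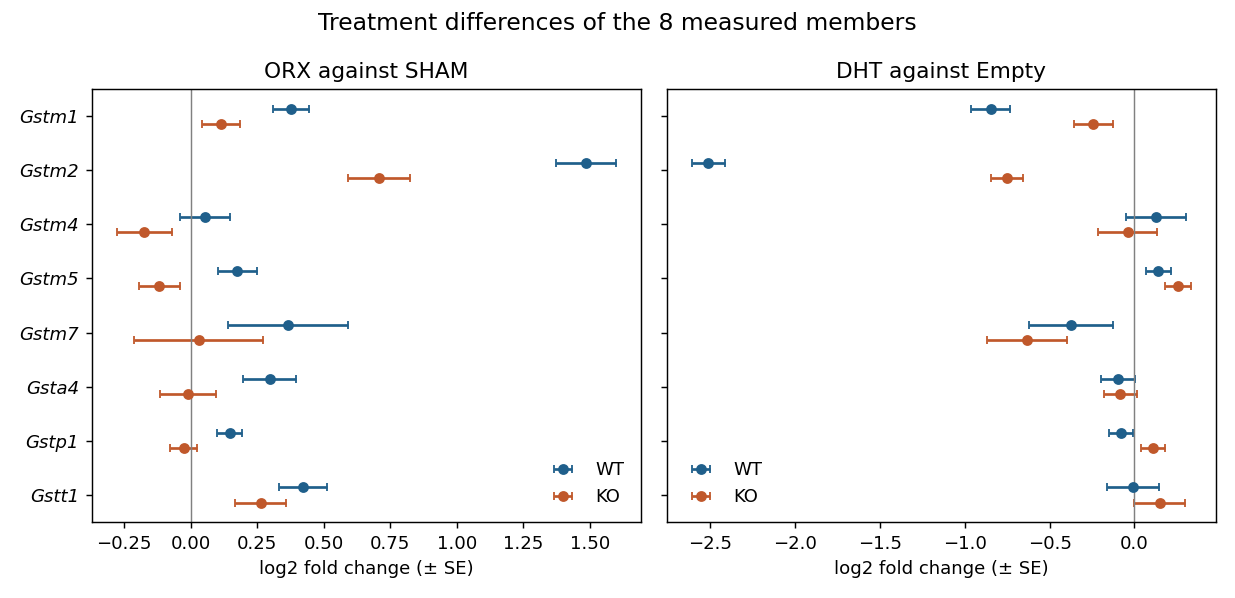
Log2 fold change (horizontal axis) of the 8 measured members (vertical axis) for ORX against SHAM and DHT against Empty, WT in blue and KO in orange, each point an edgeR estimate and each bar ± 1 SE. *Gstm2* in WT lies furthest from 0 in both experiments, upward with castration and downward with DHT.

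Levels of different members can be set beside each other only per length of exon, as CPM per kilobase (RPKM). In WT_SHAM the mean levels were 42.4 RPKM for *Gstm5*, 40.2 for *Gstm1*, 30.3 for *Gstp1*, 14.2 for *Gstm2*, 9.57 for *Gsta4*, 4.95 for *Gstt1*, 3.78 for *Gstm4* and 1.09 for *Gstm7*. *Gstm5*, *Gstm1* and *Gstp1* made up most of the summed level of the 8 members there, and *Gstm2* held 9.59% of 147 RPKM. After castration, the share of *Gstm2* was 20.1% of 197 RPKM in WT and 19.4% of 168 RPKM in KO, from 12.9% of 155 RPKM in KO_SHAM. In the implant groups *Gstm2* held 19.2% of 157 RPKM in WT_Empty and 4.64% of 114 RPKM in WT_DHT. The KO implant groups had *Gstm2* at 18.6% of 141 RPKM in KO_Empty and 11.8% of 132 RPKM in KO_DHT. In no group was *Gstm2* the most abundant member.

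Across libraries, the log2 level of *Gstm2* was correlated most with that of *Gstm1*, with r = 0.806 over 23 castration libraries and 0.848 over 22 implant libraries. With group means subtracted, r between *Gstm2* and *Gstm1* was 0.875 and 0.408. *Gstt1* had r = 0.800 with *Gstm2* in the castration libraries and 0.168 in the implant libraries, and *Gstm5* had 0.336 and -0.533. *Gstm4* had r with *Gstm2* near 0 in both, at -0.036 and -0.097. After group means were subtracted, all 7 other members had a positive r with *Gstm2* in both experiments, from 0.231 to 0.875 in the castration libraries and from 0.162 to 0.544 in the implant libraries. *Gstm5* was the highest of the implant values at 0.544, so its r changed sign when group means were taken out. These libraries share their groups and their processing, so the correlations are descriptions only.

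Gene by gene, a call means a p of at most 0.01 from the quasi-likelihood test of edgeR, adjusted by Benjamini-Hochberg across every gene measured, or 0.05 for a difference of responses between genotypes. Because the members were chosen on these same counts, their counts are set beside the share of all genes called and nothing is read from it. For ORX against SHAM in WT, the calls hold 3 of 8 members, *Gstm1*, *Gstm2* and *Gstt1*, beside 5.45% of all genes. In KO, castration calls hold 1 of 8 members, *Gstm2*, beside 5.57% of all genes. KO against WT in SHAM has 1 of 8 members, *Gstm2*, beside 5.3%, and that call is absent without replicate 6 of KO_SHAM. KO against WT in ORX has 0 of 8 members by edgeR beside 3.8% of all genes, with 5 at an unadjusted p under 0.05 (3313 of all 17514 genes), 3 by DESeq2 (*Gstm1*, *Gstm4* and *Gstm5*) and 0 by limma-voom. DESeq2 called 931 genes there, edgeR 666. The difference of castration responses has 0 of 8 members by edgeR beside 0.0228% of all genes, with 5 at an unadjusted p under 0.05 (1683 of all 17514 genes), 1 by DESeq2 (*Gstm2*) and 0 by limma-voom. DESeq2 called 127 genes there, edgeR 4.

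With DHT in WT, the calls hold 2 of 8 members, *Gstm1* and *Gstm2*, beside 11.3% of all genes. DHT calls in KO hold 1 of 8 members, *Gstm2*, beside 4.62%. Without DHT, KO against WT has 0 of 8 members by edgeR beside 4.25% of all genes, with 4 at an unadjusted p under 0.05 (3969 of all 16987 genes), 0 by DESeq2 and 0 by limma-voom. KO against WT in DHT has 1 of 8 members, *Gstm2*, beside 11.6% of all genes. The difference of DHT responses has 2 of 8 members, *Gstm1* and *Gstm2*, beside 3.24% of all genes. The median log2 fold change of the 8 members for castration was 0.33 in WT and 0.01 in KO, beside 0.01 over all genes in each. For DHT the members' median was -0.09 in WT and -0.06 in KO, beside -0.01 over all genes in each. The members were chosen on these counts, so nothing is read from these medians.

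Of 90 other genes in 6 lists of glutathione metabolism, 79 have counts: 12 of 19 other glutathione transferases, 17 of 19 genes of synthesis and breakdown, 15 of 16 of reduction and peroxide removal, 8 of 8 of NADPH supply, 24 of 24 of the NRF2 pathway and 5 of 6 of conjugate export, with *Abcc1* and *Abcc4* in the last 2 lists and counted once in the total. The lists used here and below were fixed by function, but with earlier results of these data known. Their shares called are therefore descriptions beside the share of all genes. Castration in WT called 12 of the 79 (15.2%, beside 5.45% of all genes), 3 up and 9 down, while *Gstm1*, *Gstm2* and *Gstt1* were higher. Among other transferases, the microsomal *Mgst1* fell, with a log2 fold change of -1.36 (SE 0.110; edgeR quasi-likelihood test, Benjamini-Hochberg q = 1.53e-09), with all 6 WT_ORX libraries, at 22.9 to 31.3 CPM, under all 6 WT_SHAM libraries, at 65.3 to 75.9. *Gclc*, the catalytic subunit of the first enzyme of glutathione synthesis, fell, at -0.52 (same test, q = 0.000126). The mitochondrial and peroxisomal transferase *Gstk1* rose by 0.41 (SE 0.076; same test, q = 0.000645) with no overlap of groups, in the direction of *Gstm2*. In KO, where *Gstm2* was 1.63-fold higher, *Gstk1* had mean levels of 36.1 CPM in both KO_SHAM and KO_ORX. Castration in KO called 12 of 79 (15.2%, beside 5.57% of all genes), 1 up and 11 down, with *Mgst1* at -1.12 (same test, q = 2.65e-07), or -1.22 without the 3 small libraries. This count was 3 without the 3 small libraries, 5 with only the compared groups in the fit and 5 with library-size scaling. Over all genes the calls were 492, 484 and 900 in the same order, from 975.

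DHT in WT called 21 of the 79 (26.6%, beside 11.3% of all genes), 12 up and 9 down, where *Gstm1* and *Gstm2* were lower. *Gstk1* fell where *Gstm2* was lower, from 22.6 to 29.0 CPM in WT_Empty to 11.2 to 13.6 CPM in WT_DHT with no overlap, a log2 fold change of -1.09 (SE 0.079; edgeR quasi-likelihood test, Benjamini-Hochberg q = 2.28e-10). *Cth*, the enzyme that makes cysteine from cystathionine, fell, at -2.32 (SE 0.245; same test, q = 1.21e-07), at mean levels of 4.89 CPM in WT_Empty and 0.971 in WT_DHT. *Mgst3* rose by 1.01 (SE 0.080; same test, q = 8.67e-10), and *Gclc* and *Gclm*, the subunits of glutamate-cysteine ligase, rose by 0.58 and 0.56. In KO, DHT called 4 of 79 (5.06%, beside 4.62% of all genes), all up, among them *Mgst3* at 0.76 (same test, q = 5.34e-07), and DESeq2 called 13, with 1201 of all 16987 genes. The difference of DHT responses, KO minus WT, called 6 of 79 (7.59%, beside 3.24% of all genes), 4 up and 2 down, beside *Gstm1* and *Gstm2* among the members. *Gstk1* at 0.89 (SE 0.112; same test, q = 2.49e-05) and *Cth* at 1.49 (SE 0.339; same test, q = 0.0112) had the sign of *Gstm2* there, and the repressor of NRF2 targets *Bach1*, at -0.46 (same test, q = 0.0216), had the other sign. That call of *Bach1* is absent without the WT_DHT library 8KR, without the KO_Empty library 17KR, or with library-size scaling.

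Between genotypes, 7 of the 79 were called in SHAM (4 up and 3 down in KO; 8.86%, beside 5.3% of all genes) and 4 in ORX (1 up and 3 down; 5.06%, beside 3.8%), or 8 and 4 without the 3 small libraries. Without those libraries, 901 of all 17514 genes were called in SHAM and 382 in ORX. In the implant groups, 4 were called in Empty (3 up and 1 down; 5.06%, beside 4.25%) and 15 in DHT (8 up and 7 down; 19%, beside 11.6%). The difference of castration responses called 0 of 79 by edgeR, with 10 at an unadjusted p under 0.05 (1683 of all 17514 genes), 2 by DESeq2 (127 of all genes) and 0 by limma-voom. In the comparisons where *Gstm2* was higher in KO, *Gstk1* was higher too, by 0.45 in SHAM (edgeR quasi-likelihood test, Benjamini-Hochberg q = 0.000269; 0.46 without the 3 small libraries) and by 1.00 in DHT (same test, q = 8.55e-10). Where *Gstm2* was lower in KO, the mean of *Gstk1* was still slightly higher in KO, and *Gstk1* was not called. Its means were 36.1 CPM in KO_ORX and 35.1 in WT_ORX, and 28.2 in KO_Empty and 26.1 in WT_Empty. *Nfe2l2*, which encodes NRF2, had mean levels of 37.7 to 38.7 CPM in the castration groups and 40.9 to 44.0 in the implant groups.

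Markers of other cell types were read beside *Gstm2*, none of them at 0. For DHT in WT, where *Gstm2* was lowest, 0 of 7 slow fibre genes passed the test, with summed levels of 400, 966 and 1990 CPM as lowest, median and highest in WT_Empty and 224, 449 and 972 in WT_DHT, *Myh7* the most abundant. In KO, where *Gstm2* differed less, the slow fibre sums were 855, 1715 and 2172 CPM in KO_Empty and 290, 428 and 1130 in KO_DHT. So the slow fibre sum was lower with DHT in both genotypes, with overlapping ranges, and its part in the *Gstm2* result was not tested. Smooth muscle and pericyte sums were higher with DHT, without overlap, at 384, 413 and 487 CPM in WT_Empty and 491, 565 and 583 in WT_DHT, where *Gstm2* was lower. In KO they were 351, 422 and 454 CPM in KO_Empty and 461, 507 and 539 in KO_DHT, again without overlap. Of the 6 genes of that list, 1 was called in each genotype, the most abundant, *Rgs5* (16.7%, beside 11.3% of all genes in WT and 4.62% in KO), and its part in the *Gstm2* result was not tested. Of 6 endothelial genes 1 was called for DHT in WT, *Pecam1*, up and the most abundant (16.7%, beside 11.3%), with list sums of 165, 189 and 226 CPM in WT_Empty and 202, 235 and 264 in WT_DHT. Of 8 fibroblast genes 2 were called for DHT in WT, *Dcn* up and *Pdgfra* down (25%, beside 11.3%), with list sums of 1382, 1670 and 2061 CPM in WT_Empty and 1540, 1982 and 2860 in WT_DHT, *Col3a1* the most abundant. For DHT in KO 2 of the 8 were also called, *Dcn* up and *Lum* down (25%, beside 4.62%), with sums of 1590, 1674 and 2756 CPM in KO_Empty and 1641, 1864 and 2234 in KO_DHT. For castration in WT 2 of the 8 were called, *Lum* up and *Pdgfra* down (25%, beside 5.45%), with sums of 1871, 2110 and 2714 CPM in WT_SHAM and 1747, 1975 and 2225 in WT_ORX, *Dcn* the most abundant. For castration in KO 1 of the 8 was called, *Lum* up (12.5%, beside 5.57%), with sums of 1636, 1756 and 2163 CPM in KO_SHAM and 1609, 2020 and 3550 in KO_ORX. These ranges overlap, and the part of these lists in the *Gstm2* result was not tested. Of 8 adipocyte genes 1 was called for DHT in WT, *Cfd* (12.5%, beside 11.3% of all genes), with list sums of 476, 804 and 1080 CPM in WT_Empty and 308, 474 and 806 in WT_DHT. Of 4 satellite cell genes 3 were called for KO against WT in DHT (75%, beside 11.6% of all genes), all up, where *Gstm2* was higher in KO, with list sums of 10.1, 11.9 and 16.1 CPM in WT_DHT and 16.5, 19.6 and 23.0 in KO_DHT and *Chodl* the most abundant. In SHAM, where *Gstm2* was also higher in KO, 1 of these 4 was called, *Myf5*, up (25%, beside 5.3% of all genes), with list sums of 19.4, 21.6 and 24.1 CPM in WT_SHAM and 21.2, 22.8 and 24.2 in KO_SHAM. In ORX (beside 3.8%) and Empty (beside 4.25%), where *Gstm2* was lower in KO, 0 of the 4 were called. The median sums of satellite cell genes were higher in KO there too, with overlapping ranges. They were 23.6 CPM in WT_ORX and 28.9 in KO_ORX, and 17.9 in WT_Empty and 22.1 in KO_Empty. The part of the satellite cell genes in the *Gstm2* result was not tested. After castration, where *Gstm2* was higher, 4 of 10 myofibre genes were called in each genotype (40%, beside 5.45% of all genes in WT and 5.57% in KO; 1 up and 3 down in WT, 4 down in KO), with median sums of 197500 CPM in WT_SHAM and 214700 in WT_ORX, and of 194000 CPM in KO_SHAM and 196600 in KO_ORX. Between genotypes, 4 of the 10 were called in ORX, all down in KO (40%, beside 3.8%), where *Gstm2* was lower in KO, and 2 in SHAM, both down (20%, beside 5.3%), where *Gstm2* was higher in KO. For DHT in WT 2 of the 10 were called, both up (20%, beside 11.3%), with median sums of 292200 CPM in WT_Empty and 252000 in WT_DHT. KO against WT called 1 of the 10, down, in Empty (10%, beside 4.25%) and 1, down, in DHT (10%, beside 11.6%). The part of the myofibre list in the *Gstm2* result was not tested either. Of 7 macrophage and leukocyte genes 1 was called for castration in WT, down (14.3%, beside 5.45%), where *Gstm2* was higher. For KO against WT in SHAM 1 of the 7 was called, also down (14.3%, beside 5.3%). List sums were 195, 223 and 236 CPM in WT_SHAM, 173, 198 and 217 in WT_ORX, and 156, 174 and 228 in KO_SHAM. The ranges overlap, and the part of this list was not tested.

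The genes whose levels follow *Gstm2* most closely in both experiments were found among 11648 genes by the smaller of 2 correlations, over 23 and 22 libraries. The first 5 after *Gstm2* were *Gm6665* (r = 0.969 and 0.970), *Lsm6* (0.918 and 0.969), *Adora1* (0.918 and 0.916), *Mybph* (0.914 and 0.937) and *Gm49477* (0.902 and 0.921). *Gm6665* shares 42.5% of its 31-base stretches with the *Gstm2* transcript, so the counts of the 2 genes may share reads. These 5 genes were picked by likeness in these same libraries, so directions shared with *Gstm2* come with the choice. *Lsm6*, a subunit of the RNA-binding LSM ring, had mean levels of 31.1 CPM in WT_SHAM and 49.3 in WT_ORX, and 48.2 in WT_Empty and 23.4 in WT_DHT, the directions of *Gstm2*. *Mybph*, a myosin-binding protein of fast fibres, had 15.5 CPM in WT_SHAM and 122 in WT_ORX, and 227 in WT_Empty and 9.51 in WT_DHT, wider differences than those of *Gstm2*. *Mybph* (chr1:134193448-134201232, plus strand) and the adenosine receptor gene *Adora1* (chr1:134199223-134235431, minus strand) overlap by 1162 exon bases. The strand setting of the counting is not given in the sources used here, so the counts of these 2 genes may not be separate. Among members, *Gstm1* stands 28th in this likeness to *Gstm2*. After group means were subtracted, r between *Lsm6* and *Gstm2* was 0.682 and 0.207, below the values over all libraries. The same held for *Gm6665* (0.757 and 0.288), *Adora1* (0.425 and 0.167), *Mybph* (0.687 and 0.367) and *Gm49477* (0.716 and 0.243).

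The mu-class members lie side by side on chromosome 3 of the mouse genome (GRCm38). *Gstm5* is at chr3:107895821-107898686 on the plus strand, and the others are on the minus strand: *Gstm7* at chr3:107926334-107931817, *Gstm6* at chr3:107938847-107943749, *Gstm2* at chr3:107981702-107986453, *Gstm1* at chr3:108012255-108017973 and *Gstm4* at chr3:108040408-108044894. In WT, the direct neighbours *Gstm2* and *Gstm1* were both higher after castration and lower with DHT, while *Gstm5* and *Gstm4*, at the ends of the cluster, had small differences. *Gstm7* had the signs of *Gstm2*, with log2 fold changes of 0.37 (SE 0.225) after castration and -0.37 (SE 0.245) with DHT in WT. Within 250 kb of *Gstm2*, 10 other genes were measured, and the calls among them were *Amigo1* in all 4 comparisons of KO against WT and *Gm40123* in KO against WT with DHT. Their log2 fold changes ran from -0.41 to 0.13 for castration in WT and from -0.12 to 0.97 for DHT in WT, where *Gstm2* had -2.51. *Gnat2* was the furthest from 0 of these neighbours in both, at -0.41 (SE 0.336) and 0.97 (SE 0.385), and was called in neither. Of the remaining members, *Gstp1* is at chr19:4035407-4037985, 823 kb from *Actn3*, *Gsta4* at chr9:78182774-78209349 and *Gstt1* at chr10:75783813-75798584.

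**Figure D3:**
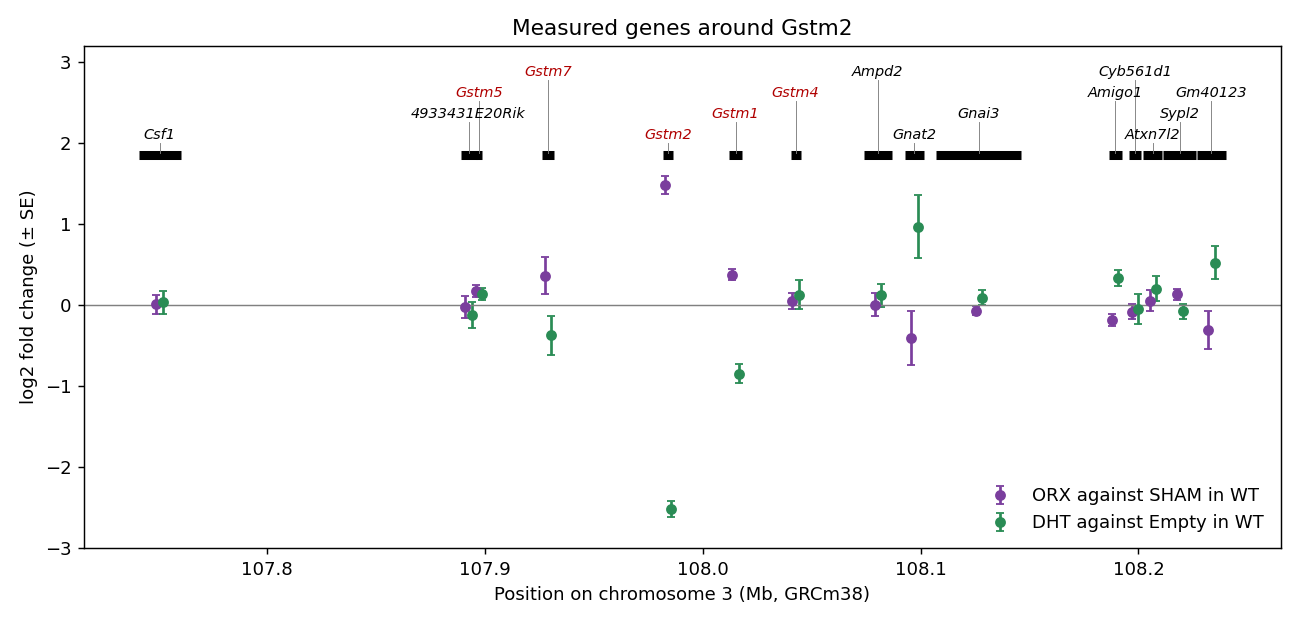
Log2 fold change (vertical axis) by position on chromosome 3 (horizontal axis, GRCm38) for measured genes around the mu-class cluster in WT, ORX against SHAM in purple and DHT against Empty in green, each point an edgeR estimate with a bar of ± 1 SE, gene spans as black bars and mu-class names in red. *Gstm2* lies furthest from 0 in both comparisons.

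The mu-class genes are alike enough for reads to be shared, so the coding sequences were compared. Identity to *Gstm2* was 86.4% for *Gstm6*, 85.9% for *Gstm1*, 84.9% for *Gstm7*, 82.6% for *Gstm4* and 73.1% for *Gstm5*. The other classes were further off, at 59.5% for *Gstt1*, 58.1% for *Gsta4* and 55.4% for *Gstp1*. Of the 100-base stretches of each transcript, 0.622% were shared with another gene for *Gstm2*, 9.05% for *Gstm1*, 9.34% for *Gstm5*, and 0 for *Gstm4*, *Gstm7*, *Gsta4* and *Gstt1*. All 6 shared stretches of *Gstm2* are also in *Gm12499*. For *Gstp1*, 52.8% of the stretches were shared, with *Gstp2*, so by shared sequence its level is the least certain of the measured members.

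Promoters from RefSeq (GRCm38.p6), 250 bases before to 50 after the transcript start, were matched for 8 of the 9 members; *Gsta4* is named only. They were searched on both strands for TGACNNNGC, the core letters of the antioxidant response element, found in 12.4% of 32851 promoters, and for AGAACA, which reads as TGTTCT on the opposite strand and is the steroid receptor hexamer, found in 19% of them. The promoters of *Gstm2*, *Gstm1* and *Gstm5* are shown because these mu-class genes had log2 fold changes of -2.51, -0.85 and 0.14 with DHT in WT, the last with overlapping ranges, with matches in capitals: *Gstm2* at chr3:107986371-107986670 (minus strand), *Gstm1* at chr3:108017924-108018223 (minus strand) and *Gstm5* at chr3:107895604-107895903 (plus strand).
Gstm2: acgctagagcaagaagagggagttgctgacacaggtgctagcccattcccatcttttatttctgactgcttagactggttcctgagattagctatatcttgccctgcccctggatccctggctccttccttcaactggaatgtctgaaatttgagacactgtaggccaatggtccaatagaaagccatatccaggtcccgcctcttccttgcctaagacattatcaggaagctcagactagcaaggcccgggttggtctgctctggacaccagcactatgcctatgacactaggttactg
Gstm1: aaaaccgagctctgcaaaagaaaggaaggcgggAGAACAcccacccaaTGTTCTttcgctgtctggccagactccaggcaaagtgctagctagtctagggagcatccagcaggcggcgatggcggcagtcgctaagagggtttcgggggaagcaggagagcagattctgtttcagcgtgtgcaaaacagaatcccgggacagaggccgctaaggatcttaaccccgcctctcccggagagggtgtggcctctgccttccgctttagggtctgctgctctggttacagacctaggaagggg
Gstm5: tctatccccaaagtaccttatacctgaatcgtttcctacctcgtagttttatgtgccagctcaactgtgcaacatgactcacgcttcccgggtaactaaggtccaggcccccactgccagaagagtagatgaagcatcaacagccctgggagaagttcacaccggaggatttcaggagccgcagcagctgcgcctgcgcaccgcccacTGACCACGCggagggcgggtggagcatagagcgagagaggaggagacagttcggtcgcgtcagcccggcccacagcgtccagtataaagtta
The *Gstm2* window holds neither motif. The *Gstm1* window shown, 1 of 2 for this gene, holds AGAACA and TGTTCT near its far end, while the other, at chr3:108017769-108018068, holds neither motif. The *Gstm5* window holds TGACCACGC. Of the other members, 1 of 2 *Gstm7* windows holds TGACAAAGC, 2 of 3 *Gstm6* windows hold AGAACA, and those of *Gstm4*, *Gstt1* and *Gstp1* hold neither motif. A match is a description of letters, and its absence says only that they are not in that window.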

How the data were processed

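The 45 libraries are bulk muscle RNA made with a stranded total RNA kit, and the deposited values are gene counts, which the authors made with STAR 2.7.1b, SAMtools 1.9, Picard 2.20.2 and featureCounts of Subread 2.0.0. Columns were matched to groups by their names, and 1 labelled KO_ORX sample, replicate 6, has no column, so 23 castration and 22 implant libraries were used. Members and lists were chosen with earlier results of these data known. Each experiment was fitted alone in edgeR 4.0.16 (R 4.3.3) with TMM scaling, 1 mean per group and quasi-likelihood tests, with a filter of 0.5 CPM in 2 or more libraries, which removed 0 genes, and Benjamini-Hochberg adjustment over all 17514 or 16987 genes. A standard error is the log2 fold change divided by the square root of F. Log2 CPM used a prior count of 2. Replicate numbers were not treated as pairs of animals in the main fit. With group means subtracted, r over 33 same-number pairs of castration libraries ran from -0.249 to 0.286 (median 0.031), and 9 passed 0.1. For 8 of 23 libraries, the closest library of another group had the same number. Whether the numbers mark a shared step was not tested. Median depth ran from 34.3 M counts (M, mega) in KO_SHAM to 52.0 M in WT_DHT. Alternatives were DESeq2 1.42.0, limma-voom (limma 3.58.1), library-size scaling, other filters and thresholds, only the compared groups in the fit, a replicate block, each library left out and, chosen after seeing the data, the 2 KO_ORX libraries under 30 M left out, and these with replicate 1 of KO_SHAM. Genes were placed with GENCODE M21 (GRCm38), while the authors' notes name GRCm39 for alignment. Sequences were compared with Biopython 1.88 in Python 3.11.15, and figures drawn with matplotlib 3.10.9.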

Additional observations from a re-analysis of the deposited data

Results flagged for a closer look

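In 4 of 64 sets of a member in a group, 1 library stood far from the rest. *Gstm2* in replicate 5 of WT_SHAM was 14.4 CPM, with the nearest library at 23.3 and the other end at 29.0. *Gstm5* in replicate 3 of KO_ORX was 52.6 CPM, with the nearest at 49.8 and the other end at 48.9. *Gstm7* in the KO_Empty library 17KR was 1.26 CPM, with the nearest at 1.99 and the other end at 2.29. *Gsta4* in the WT_Empty library 4KR was 9.80 CPM, with the nearest at 7.75 and the other end at 7.09.

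The response to DHT differed between genotypes, as log2 difference of KO minus WT, by 1.76 for *Gstm2* and 0.60 for *Gstm1* among the members. Among the genes of glutathione metabolism it differed by 1.49 for *Cth*, 0.89 for *Gstk1*, 0.48 for *Me3*, 0.40 for *Abcc5*, -0.57 for *Aox1* and -0.46 for *Bach1*.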

How the results depend on the processing

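The log2 fold changes of *Gstm2* kept their direction under every alternative. They ran from 1.38 to 1.55 for ORX in WT, from -2.58 to -2.45 for DHT in WT and from 0.67 to 0.76 for ORX in KO as single libraries were left out. Without the 3 small libraries *Gstm2* was 0.83 for ORX in KO, and -0.17 for KO against WT in ORX, from -0.28. No member or named gene turned its sign in a comparison where it was called, but members near 0 did with 1 library left out. Examples for KO against WT in SHAM were *Gstm1* (-0.075 to 0.004) and *Gstm5* (-0.044 to 0.048). For ORX in KO they were *Gstm7* (-0.194 to 0.220), *Gsta4* (-0.071 to 0.041) and *Gstp1* (-0.063 to 0.005), among others. With library-size scaling the order of means near each other also turned. Means of *Gstp1* in KO_ORX and KO_SHAM went from 47.3 and 48.2 CPM to 49.4 and 46.7. Those of *Lsm6* in KO_ORX and WT_ORX went from 48.6 and 49.3 CPM to 50.7 and 49.7. Counts of calls moved more. Those given below at another adjusted p, or with 1 library left out, stand without the share of all genes called in that setting. Nothing is read from them.

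For ORX in KO, the pathway count of 12 was 5 with library-size scaling, 5 with only the compared groups, 6 without the 2 small KO_ORX libraries, 3 without all 3 small libraries, 19 at an adjusted p of 0.05 and 4 to 13 with 1 library left out. For KO against WT in SHAM, the member count of 1 was 2 at 0.05 and 0 to 2 with 1 library left out, and the pathway count of 7 was 12 at 0.05. For KO against WT in ORX, the member count of 0 was 3 by DESeq2, 3 at 0.05 and 0 to 2 with 1 library left out. For the difference of castration responses, the member count of 0 was 1 by DESeq2 and 0 to 1 with 1 library left out, and the pathway count of 0 was 2 by DESeq2.

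For DHT in KO, the member count of 1 was 2 at 0.05 and 1 to 2 with 1 library left out, and the pathway count of 4 was 13 by DESeq2, 16 at 0.05 and 3 to 9 with 1 library left out. For KO against WT in Empty, the member count of 0 was 1 at 0.05 and 0 to 1 with 1 library left out. For KO against WT in DHT, the member count of 1 was 2 by DESeq2, 2 with library-size scaling, 3 at 0.05 and 1 to 2 with 1 library left out, and the pathway count of 15 was 24 at 0.05. For the difference of DHT responses, the member count of 2 was 1 by limma-voom, 1 with library-size scaling, 1 at an adjusted p of 0.01 and 1 to 2 with 1 library left out, and the pathway count of 6 was 3 at 0.01. The cause was not tested.

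Calls over all genes for ORX in KO were 484 with only the compared groups, 542 without the 2 small KO_ORX libraries and 492 without all 3, against 975. For KO against WT in Empty they were 289 with only the compared groups, against 722. For DHT in KO they were 498 with only the compared groups and 1201 by DESeq2, against 784. For KO against WT in ORX they were 363 and 382 without the 2 or the 3 small libraries, against 666. For KO against WT in DHT they were 2386 by DESeq2 and 1982 with library-size scaling, against 1978. For the difference of DHT responses they were 514 by limma-voom and 515 with library-size scaling, against 550. For the difference of castration responses they were 127 by DESeq2, 10 by limma-voom and 2 without the 3 small libraries, against 4. The shares of all genes called in these comparisons move with them. The replicate block, run for the castration experiment, left the counts of members as they were. It gave 10 pathway genes for ORX in KO and 10 for KO against WT in SHAM, where the counts were 12 and 7. Over all genes the block gave 914 and 921 calls in these 2 comparisons, against 975 and 928. Depth limits *Gstm7* most, at 24 to 124 counts a library. Protein and enzyme activity are not analysed here, each experiment has 1 sex and 1 muscle, and all members were chosen on these counts.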
